A study of Mus musculus with 2 samples.

Results

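The axon guidance ligands and receptors of the mouse retina were described across 2 arrays: the Eph receptors and their ephrin ligands, the semaphorins with their plexin and neuropilin receptors, the Slits with the Robo receptors, and the netrins with the Dcc, Neo1 and Unc5 receptors. A gene was a member when a RefSeq transcript targeted by a non-control probe belonged to a symbol of these families. Members numbered 75 genes with 98 probes, out of 21367 named genes on the array. The symbol rule also caught 3 genes that are not guidance receptors or ligands (Unc50, Unc5cl and Plxna4os1), and these were kept in the counts and are identified where they appear. The study set a Samd7 KO retina against a wild-type retina, each at postnatal day 12 and each on 1 single-colour Agilent array, with total RNA labelled with Cy3. Samd7 encodes a sterile alpha motif protein of photoreceptors. The labels give no strain, no number of animals per RNA and no account of how Samd7 was altered. With 1 array for each genotype there was no replicate, so no test, p-value or spread between animals could be had, and every difference is one between these arrays.

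Axon guidance molecules steer growing axons and dendrites by attraction or repulsion at the growth cone. Eph receptors are tyrosine kinases that bind ephrins anchored in the membrane of a neighbouring cell, and gradients of both across the retina and its midbrain targets order the retinal map. Semaphorins signal through plexins, with neuropilins as co-receptors for most secreted class members, Slits repel axons through Robo receptors, and netrins attract through Dcc or repel through Unc5 receptors. In the mouse retina these systems are known for guiding ganglion cell axons to the optic disc and for sorting dendrites into the layers of the inner plexiform layer.

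The targeted gene was checked first. Samd7 had a log2 signal of 6.47 on the array labelled knockout, against 4.68 on the array labelled wild type, which is 3.44-fold higher. This is opposite to a loss of transcript under the knockout label. The labels do not say how the gene was altered or where its probe, A_55_P2138237, lies. The probe therefore cannot settle whether the labels are right. The arrays are therefore called knockout-labelled and wild-type-labelled, and every direction rests on those labels. Signals are given on the log2 scale relative to the 75th percentile of all non-control spots on the same array, and every difference is knockout-labelled minus wild-type-labelled. The scanner software called 60.9% of non-control spots well above background on the knockout-labelled array and 60.3% on the wild-type-labelled array, and no spot was saturated. The technical SD of a difference, taken from probes printed repeatedly, was 0.05 where the log2 signal reached 0, 0.09 between -2 and 0, 0.19 between -4 and -2, and 0.33 for spots dimmer than -4. That SD covers spot noise only, and each member probe was printed 1 time. The retinal marker Crx, a photoreceptor transcription factor, was present on both arrays, with a signal of 4.12 on the knockout-labelled array and 4.15 on the wild-type-labelled array.

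Most guidance genes lay near level, and a small group was higher on the knockout-labelled array. Either array called 71 of the 75 members well above background, and both did so for 69. Epha1, Epha8, Slit3, Robo3 and Sema7a passed 2-fold with the knockout-labelled array higher, and no member passed it with that array lower. In RNA of a whole retina, fewer cells of a type and less RNA per cell cannot be told apart. These 5 genes are 7.04% of the members above background, beside 1.58% of all 15951 named genes above background that were at least 2-fold higher and 1.37% that were at least 2-fold lower. At 1.5-fold, Unc5b joined them, giving 6 members higher and 0 lower, beside 2.97% of all genes higher and 3.21% lower. At 4-fold only Epha1 was left, beside 0.495% of all genes higher and 0.364% lower. The 5 genes come from 4 families and include 3 receptors and 2 ligands. No replicate exists to say whether this share would recur in other animals. The members were chosen with earlier results of these data known, so the share describes them and tests nothing about these families.

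Over all members, with that group included, most differences were small. The median difference of the members above background was -0.05, against -0.02 for all named genes above background. The middle of the members, between their 25th and 75th percentiles, spanned -0.14 to 0.05, against -0.11 to 0.06 for all genes. A log2 difference smaller than 0.5 in either direction was found in 63 of the 69 members with a value on each array (91.3%), and in 94.7% of all such genes. Differences were above 0 in 26 of the 69 members (37.7%), beside 41.9% of all genes measured on both arrays. Centring each array on its median signal adds 1 constant to every difference, which put 33 members (47.8%) above 0, beside 53.0% of all genes, so no direction is read from differences this close to 0. The ligand families (35 genes measured on both arrays and Slit3 by a bound) had a median of -0.06, and the receptor families (33 measured and Unc5d by a bound) had a median of -0.01.

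**Figure D1:**
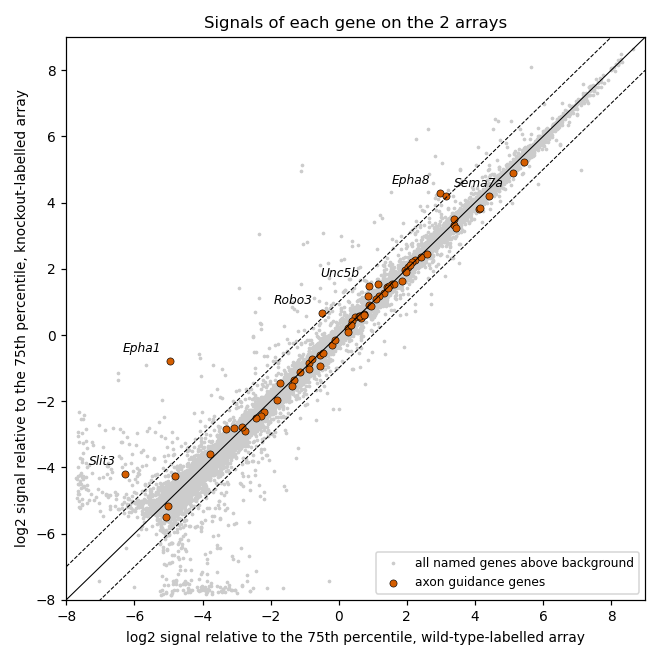
Log2 signal of each gene relative to the 75th percentile of its array, with the knockout-labelled array on the vertical and the wild-type-labelled array on the horizontal axis; grey points are all named genes above background on at least 1 array, orange points the 71 guidance genes, the solid line equality and the dashed lines 2-fold. Epha1, Epha8, Slit3, Robo3 and Sema7a lie above the upper dashed line, and no guidance gene lies below the lower one.

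Epha1 showed the largest difference of the group. It encodes an Eph receptor tyrosine kinase best known from epithelial tissues. Its probe gave a processed signal of 319 intensity units on the knockout-labelled array (software error estimate 32.0), against 18.5 on the wild-type-labelled array (error estimate 3.41). On the log2 scale this was -0.80 against -4.95, a difference of 4.16 or 17.8-fold, with a technical SD of 0.19 at the mean signal. The wild-type-labelled signal alone lay below -4, where the technical SD was 0.33. Among the 15267 genes measured on both arrays, only 4 had a higher difference. The wild-type-labelled value was above background but dim, where the lowest spot called well above background had 13.7 intensity units. Normexp background correction, whose offset raises dim signals, gave a difference of 2.36, or 5.14-fold, in the same direction.

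Epha8, Robo3 and Sema7a were measured on both arrays in spots well clear of background. Epha8, an Eph receptor described in the developing mouse midbrain, had 10881 intensity units on the knockout-labelled array (error estimate 1088), against 4486 on the wild-type-labelled array (error estimate 449), a difference of 1.33 or 2.52-fold. Robo3, which in the mouse lets commissural axons approach and cross the midline, had 879 units on the knockout-labelled array (error estimate 87.9), against 406 on the wild-type-labelled array (error estimate 40.7), a difference of 1.17 or 2.25-fold. The technical SD at the mean signal was 0.05 for Epha8 and 0.05 for Robo3. It covers spot noise only and leaves out variation between labellings, arrays or animals. Sema7a, a semaphorin held in the membrane by a lipid anchor that acts through integrins and plexin C1, had 10102 units on the knockout-labelled array (error estimate 1010.2), against 5127 on the wild-type-labelled array (error estimate 513). Its difference of 1.03, or 2.04-fold, stood just inside the threshold, and under normexp it was 0.996, just outside. Each of these genes was represented by 1 probe, so none has a second probe as a check.

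Slit3 and Unc5b complete the members at least 1.5-fold apart. Slit3, a secreted Slit ligand, had 30.3 intensity units on the knockout-labelled array (error estimate 4.41) and was not well above background on the wild-type-labelled array, at 7.43 units (error estimate 3.71). Taken against the lowest signal called well above background on the wild-type-labelled array, Slit3 was at least 2.30-fold higher, a bound of 1.20 on the log2 scale. Spot noise is largest at this signal, and with normexp the bound was 0.43. Unc5b, a netrin receptor of repelled axons and of vessel tips, had 1552 units on the knockout-labelled array (error estimate 155), against 1060.4 on the wild-type-labelled array (error estimate 106), a difference of 0.60 or 1.52-fold. It was the first member outside the 2-fold threshold, and the next was Sema3g at 0.57.

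**Figure D2:**
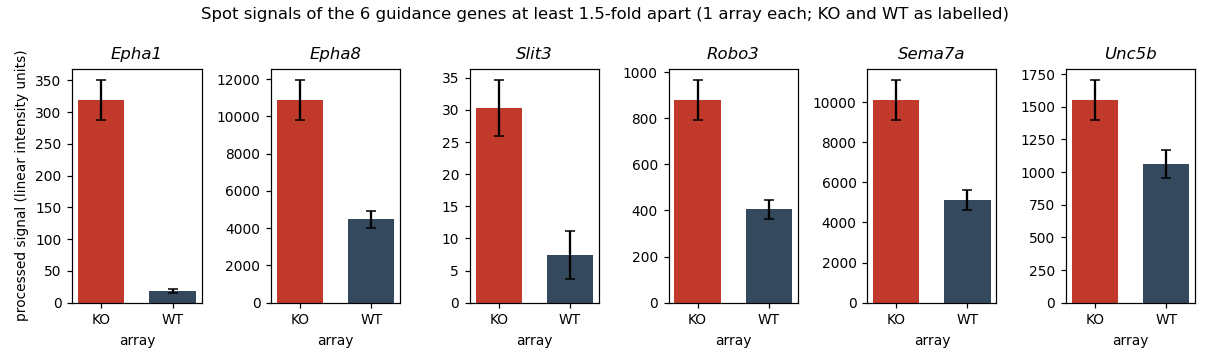
Processed signal, in linear intensity units, of the 6 guidance genes at least 1.5-fold apart, with the knockout-labelled array left and the wild-type-labelled array right in each panel; bars start at 0, each is 1 array, and error bars are the scanner software's own error estimate for that spot. Every knockout-labelled bar is higher, and the panels have separate vertical scales, from Slit3 with 30.3 and 7.43 units to Epha8 with 10881 and 4486 units.

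The start regions of the 5 genes at least 2-fold higher are shown because these members moved in the same direction, so that a reader can compare what lies at their starts. Each window holds 250 bases before and 50 bases after the annotated start, 5′ to 3′ on the gene's strand, from RefSeq on GRCm38.p6. Capitals mark the GC box GGGCGG or its reverse complement CCGCCC, and in Robo3 also GGATTA, the reverse complement of the CRX and OTX core motif TAATCC; CCGCCCGCCC holds a pair of overlapping GC boxes. The windows lie at chr6:42373219-42373518 on the minus strand (Epha1), chr4:136956767-136957066 on the minus strand (Epha8), chr11:35121206-35121505 on the plus strand (Slit3), chr9:37433126-37433425 on the minus strand (Robo3) and chr9:57939862-57940161 on the plus strand (Sema7a).
Epha1: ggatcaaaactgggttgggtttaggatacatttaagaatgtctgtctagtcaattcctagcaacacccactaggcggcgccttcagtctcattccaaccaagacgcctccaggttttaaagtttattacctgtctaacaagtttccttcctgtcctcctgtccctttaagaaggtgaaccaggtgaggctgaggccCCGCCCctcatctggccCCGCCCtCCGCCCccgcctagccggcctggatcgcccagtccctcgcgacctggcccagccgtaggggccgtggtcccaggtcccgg
Epha8: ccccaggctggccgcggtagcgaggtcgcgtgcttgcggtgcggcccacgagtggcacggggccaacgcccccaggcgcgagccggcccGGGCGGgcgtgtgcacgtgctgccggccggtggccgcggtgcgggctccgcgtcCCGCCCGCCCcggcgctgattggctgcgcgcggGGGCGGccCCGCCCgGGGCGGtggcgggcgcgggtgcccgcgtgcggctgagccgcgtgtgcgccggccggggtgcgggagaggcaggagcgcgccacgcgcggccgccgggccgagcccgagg
Slit3: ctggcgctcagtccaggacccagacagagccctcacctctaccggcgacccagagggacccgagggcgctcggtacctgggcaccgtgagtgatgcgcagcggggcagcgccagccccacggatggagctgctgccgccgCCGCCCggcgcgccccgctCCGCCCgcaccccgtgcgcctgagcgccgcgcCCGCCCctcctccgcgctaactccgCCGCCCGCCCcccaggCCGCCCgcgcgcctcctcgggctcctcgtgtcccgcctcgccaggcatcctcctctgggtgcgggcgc
Robo3: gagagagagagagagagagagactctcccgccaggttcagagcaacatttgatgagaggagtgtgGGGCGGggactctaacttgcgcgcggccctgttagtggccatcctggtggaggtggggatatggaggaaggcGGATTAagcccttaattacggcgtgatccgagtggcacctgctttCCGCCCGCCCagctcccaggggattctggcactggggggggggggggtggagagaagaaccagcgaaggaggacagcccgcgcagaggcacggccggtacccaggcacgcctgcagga
Sema7a: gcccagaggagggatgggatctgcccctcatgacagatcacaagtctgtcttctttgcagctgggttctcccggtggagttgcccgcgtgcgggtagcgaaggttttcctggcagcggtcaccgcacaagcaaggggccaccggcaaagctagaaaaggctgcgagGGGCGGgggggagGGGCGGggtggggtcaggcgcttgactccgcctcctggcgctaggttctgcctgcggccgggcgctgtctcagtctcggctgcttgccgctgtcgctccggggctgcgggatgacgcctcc

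All 5 windows held at least 1 GC box, with 3 in Epha1, 6 in Epha8, 6 in Slit3, 3 in Robo3 and 2 in Sema7a. A GC box was also present in 57 of the 80 windows available for 64 member genes, in 46.2% of 21263 windows of protein-coding genes and in 35.7% of all 32851 windows. CpG dinucleotides numbered 14 in the Epha1 window, 56 in Epha8, 41 in Slit3, 17 in Robo3 and 23 in Sema7a, beside a median of 19.5 in the member windows and of 13 in those of protein-coding genes. The 5 windows thus ranged from fewer CpGs than the median member to the most of any member window. TAATCC, bound by the photoreceptor factor Crx, was found on either strand in 2 member windows, those of Robo3 and of its neighbour Robo4, and in 6.42% of windows of protein-coding genes. These are matches of letters in a fixed window and were not set against binding data.

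Ephrins, the ligands, were within 0.5 of 0 in all 8 cases by the brightest probe. Efna4, a lipid-anchored ephrin of the A class, had the highest difference, with a signal of -2.85 on the knockout-labelled array and -3.32 on the wild-type-labelled array (0.46, technical SD 0.19). Efna3 had the lowest, -1.53 against -1.37 (-0.17), and its dimmer probe gave -0.02. The transmembrane ephrins of the B class lay closest together: Efnb1 had 2.27 on the knockout-labelled array and 2.23 on the wild-type-labelled array (0.04), Efnb2 had 1.495 and 1.478 (0.02) and Efnb3 had 2.36 and 2.42 (-0.06). A dimmer Efnb2 probe was not well above background on the knockout-labelled array, at -5.41, against -4.77 on the wild-type-labelled array. Its bound of -0.64 equals that plain difference. Efna5, whose gradient takes part in retinal mapping, was at -0.07.

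Eph receptors held both the highest and some of the lower differences. All 14 were measured on both arrays, with a median of -0.03. Apart from Epha1 and Epha8, the 12 others ran from 0.28 (Epha2) to -0.31 (Epha5). Epha5, which reads ephrin-A gradients in mouse retinal axons, had 3.82 on the knockout-labelled array and 4.13 on the wild-type-labelled array, and its dimmer probe gave -0.01. Ephb3, a receptor of B-class ephrins, had 4.88 on the knockout-labelled array, against 5.11 on the wild-type-labelled array (-0.22). The 5 EphB receptors ran from -0.22 to 0.04, so the 2-fold differences were both in EphA receptors, while the 5 A-class ephrins they bind ran from -0.17 to 0.46.

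Semaphorins were mostly level, with Sema7a the exception above. All 20 were measured on both arrays, with a median of -0.06 and 18 within 0.5 of 0. Among the 7 secreted class 3 genes, Sema3g was at 0.57, but its spots were dim (-4.25 on the knockout-labelled array and -4.82 on the wild-type-labelled array, technical SD 0.33), and normexp gave 0.10. Sema3a, which collapses growth cones through neuropilin 1, was the lowest semaphorin, with -0.92 on the knockout-labelled array and -0.54 on the wild-type-labelled array (-0.38). Its dimmer probe pointed the other way at 0.48, and the mean over both was 0.05, so Sema3a has no settled direction. Sema3f, which acts through neuropilin 2, had 4.19 and 4.41 on the same arrays (-0.22). The 6 class 4 genes ran from -0.21 to -0.005, with Sema4c, a ligand of plexin B2, at 5.22 on the knockout-labelled array and 5.43 on the wild-type-labelled array, and the 4 class 6 genes ran from -0.21 to -0.02. Sema5a and Sema5b, which in mice keep inner retinal dendrites within the inner plexiform layer, were at 0.02 and 0.31, and the other Sema5b probe gave 0.22.

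Semaphorin receptors showed no 2-fold difference. Of 9 plexins, 8 were above background on both arrays, and these ran from -0.30 to 0.07. Plxna2, a receptor of Sema6a in mouse retinal lamination, was lowest, with 3.84 on the knockout-labelled array and 4.14 on the wild-type-labelled array. Plxnb2 had 3.24 and 3.46 on those arrays (-0.22), and Plxnd1, the receptor of Sema3e known from vessels, had 1.42 and 1.46 (-0.04). Plxnc1, the plexin that binds Sema7a, was highest of the family but close to level, with 0.54 on the knockout-labelled array and 0.47 on the wild-type-labelled array (0.07). The co-receptor Nrp2 had 2.45 on the knockout-labelled array, against 2.60 on the wild-type-labelled array (-0.14), and Nrp1 had -2.79 against -2.84 (0.06). Plxnb3 was not well above background on either array.

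Within the Slit and Robo system, Slit3 and Robo3 stood apart from their relatives. Slit1 had 0.87 on the knockout-labelled array and 0.96 on the wild-type-labelled array (-0.09), and Slit2 had 1.95 and 1.96 (-0.003); in the mouse both keep ganglion cell axons on their path. Robo1 had 0.91 and 0.90 on those arrays (0.01), and Robo2, the main receptor of ganglion cell axons for Slits, had 1.55 and 1.61 (-0.06, and -0.10 with its other probe). Robo4, an endothelial relative whose gene lies next to Robo3, had 0.59 on the knockout-labelled array and 0.66 on the wild-type-labelled array (-0.07). The other 3 Robo genes thus ran from -0.07 to 0.01. Mammalian Robo3 is known to bind Slits poorly, unlike the other neuronal Robos.

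Netrins were near level, and their receptors varied more. Of 6 netrin genes, 5 were above background on both arrays, and these ran from -0.17 to 0.03. Ntng1 and Ntng2, lipid-anchored netrins that act at synapses, were at 0.03 (2.07 on the knockout-labelled array and 2.04 on the wild-type-labelled array) and -0.17 (-2.44 and -2.28), and Ntn3 was at -0.08 (-0.53 and -0.45). Netrin 1, Ntn1, which guides ganglion cell axons into the optic nerve, was dim, with -5.15 on the knockout-labelled array and -5.01 on the wild-type-labelled array (-0.15, technical SD 0.33). Ntn5 was not above background.

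Among the netrin receptors, Unc5b (0.60) was followed by Neo1, which also binds repulsive guidance molecules, with 1.53 on the knockout-labelled array and 1.14 on the wild-type-labelled array (0.39, technical SD 0.05). Dcc, the attractive netrin receptor, had 3.50 on the knockout-labelled array and 3.38 on the wild-type-labelled array (0.12, and 0.05 with the next brightest probe). Unc5a had 2.22 and 2.15 on those arrays (0.07). Unc5c was lowest of those measured on both arrays, at 0.60 on the knockout-labelled array and 0.75 on the wild-type-labelled array (-0.15, and -0.38 with its other probe). Unc5d was not well above background on the knockout-labelled array, at -5.50, against -5.08 on the wild-type-labelled array. Its bound of -0.42 equals that plain difference. Of the 3 genes caught by their symbol, Unc50, a Golgi protein, was at -0.05, while Unc5cl and the antisense RNA Plxna4os1 were not above background.

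**Figure D3:**
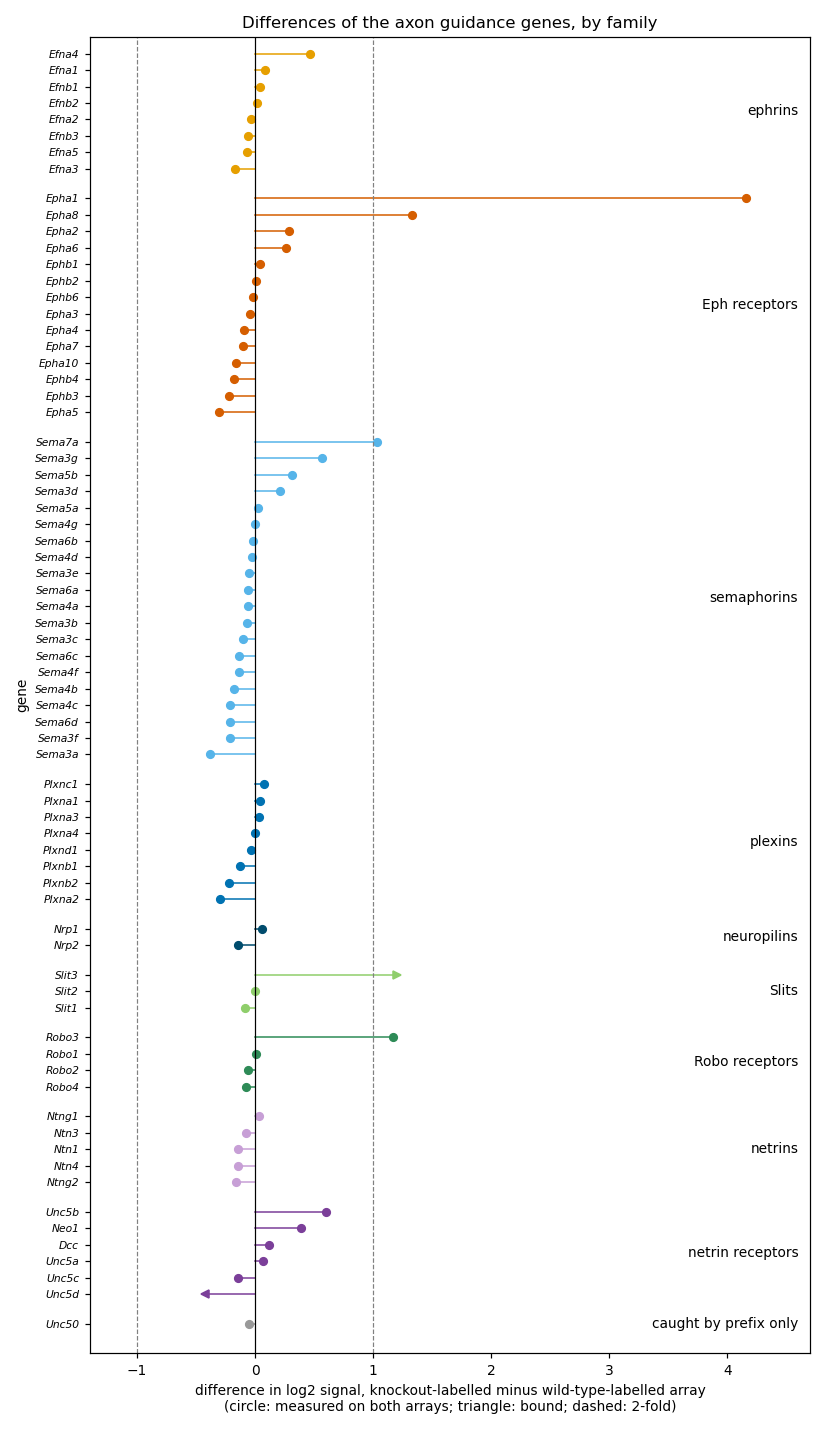
Difference in log2 signal, knockout-labelled minus wild-type-labelled array, of the 71 guidance genes above background on at least 1 array, ordered within families; circles were measured on both arrays, triangles are bounds (Slit3 at 1.20 and Unc5d at -0.42), and dashed lines mark 2-fold. Epha1 at 4.16 lies far from the others, and the ephrins, plexins, neuropilins and netrins have no gene past a dashed line.

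Genes with several probes gave a second view of the measurement. Of the 75 members, 54 had 1 probe, 19 had 2 and 2 had 3. Several probes were usable in 17 members, and their differences spread over a median of 0.11 from lowest to highest probe, beside 0.10 over 4132 such genes of the array. The widest ranges were those of Sema6d (0.95) and Sema3a (0.86), whose dimmer probes had signals below -4 on at least 1 array. None of the 6 genes at least 1.5-fold apart is among these 17, because each has 1 probe.

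**Figure D4:**
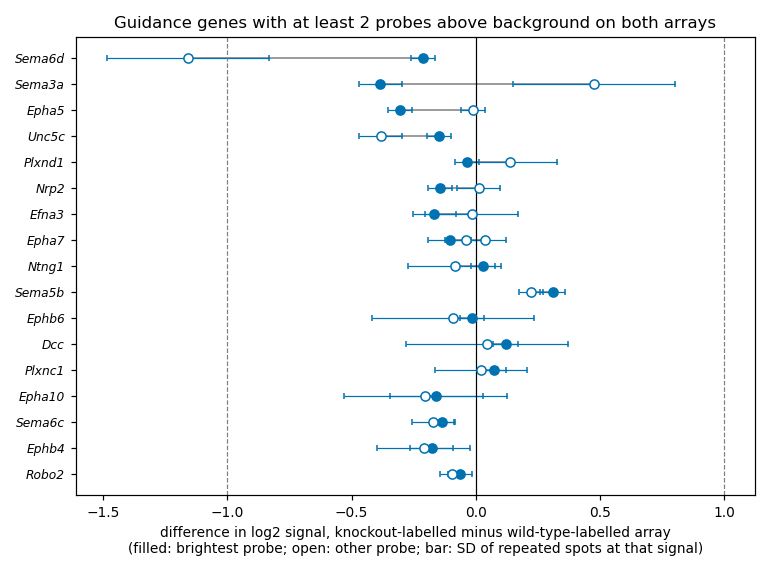
Difference in log2 signal, knockout-labelled minus wild-type-labelled array, of each probe for the 17 guidance genes with several usable probes; filled points are the brightest probe, open points the others, bars are 1 technical SD of repeated spots at that signal, and dashed lines mark 2-fold. Sema6d spans -1.16 to -0.21 and Sema3a spans -0.38 to 0.48, and the next widest, Epha5, spans -0.31 to -0.01.

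Other guidance cues and co-receptors, and intracellular effectors of guidance receptors, were read from fixed lists. Of 34 cues and co-receptors, 33 were matched and 31 were above background, with a median of -0.04, 1 gene (3.23%) at least 2-fold higher and 0 lower, beside 1.58% higher and 1.37% lower of all genes. That gene was Nrcam, an adhesion molecule that takes part in semaphorin and Slit responses, with 5.14 on the knockout-labelled array, against 4.04 on the wild-type-labelled array (1.102, or 2.15-fold, technical SD 0.05). Dscaml1, an adhesion molecule that spaces retinal neurons in mice, was lowest, with 1.64 on the knockout-labelled array and 2.14 on the wild-type-labelled array (-0.49, and -0.59 with its other probe). The neural cell adhesion molecule Ncam1 had 5.92 and 5.96 on those arrays (-0.04).

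All 50 effectors were above background on both arrays, with a median of -0.01. Of these, 1 (2%) was at least 2-fold higher and 1 at least 2-fold lower, beside 1.58% higher and 1.37% lower of all genes. Mical2, an actin-oxidising enzyme of a family that acts below plexins, had -2.75 on the knockout-labelled array, against -3.92 on the wild-type-labelled array (1.17; 0.50 under normexp and 0.55 with the mean over its probes). The other Mical2 probe, which enters that mean, was above background on neither array. The kinase Src had -3.91 on the knockout-labelled array, against -2.83 on the wild-type-labelled array (-1.08; -0.55 under normexp). Both spots were dim, with a technical SD of 0.19. Dpysl3, of the collapsin response mediators, had 5.97 on the knockout-labelled array and 6.09 on the wild-type-labelled array (-0.12). The adaptor Nck2 (0.84) and Farp2, an exchange factor of semaphorin 3A signalling (0.78), lay between 1.5-fold and 2-fold in brighter spots. For both lists, the shares of 2-fold genes rest on 1 gene in each direction at most.

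Markers of several cell types differed between the arrays together with these genes, and their part in the differences was not tested. Signals were summed over each marker list in units of the array's 75th percentile. The counts below stand beside 41.9% of all genes measured on both arrays with a difference above 0. Of all named genes above background, 1.58% were at least 2-fold higher and 1.37% at least 2-fold lower. The 6 lens markers were all higher in the knockout-labelled sample, 5 by 2-fold or more, with a sum of 17.5 against 3.63 on the wild-type-labelled array; the lens water channel Mip was not above background on the wild-type-labelled array. The 4 cone markers summed to 54.7 on the knockout-labelled array and 42.2 on the wild-type-labelled array, with Opn1sw and Cnga3 at least 2-fold higher. The 4 rod markers summed to 321 on the knockout-labelled array and 465 on the wild-type-labelled array, and all 4 were lower. They were not lower to a similar extent. Gnat1 was at least 2-fold lower (-2.13), with 4.97 on the knockout-labelled array and 7.10 on the wild-type-labelled array. Cnga1 (-0.30), Nrl (-0.16) and Nr2e3 (-0.13) differed far less. The 8 general retinal markers, Crx among them, ran from -0.28 to 0.06, with a median of -0.01. Of the 6 pigment epithelium markers, 5 were lower, with sums of 18.4 and 24.5 on the same arrays. All 3 red cell markers were higher, with sums of 29.2 on the knockout-labelled array and 22.8 on the wild-type-labelled array.

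Markers of the cells that send axons to the brain differed little. The 7 ganglion cell markers ran from -0.09 to 0.08 and summed to 117 on the knockout-labelled array and 120 on the wild-type-labelled array. Endothelial and pericyte markers, 6 in number, ran from -0.29 to 0.06 and summed to 21.0 and 21.4 on those arrays. Myelin markers of an attached optic nerve summed to 9.22 on the knockout-labelled array and 8.81 on the wild-type-labelled array, with 4 of 5 above background and Mobp above it on neither.

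**Figure D5:**
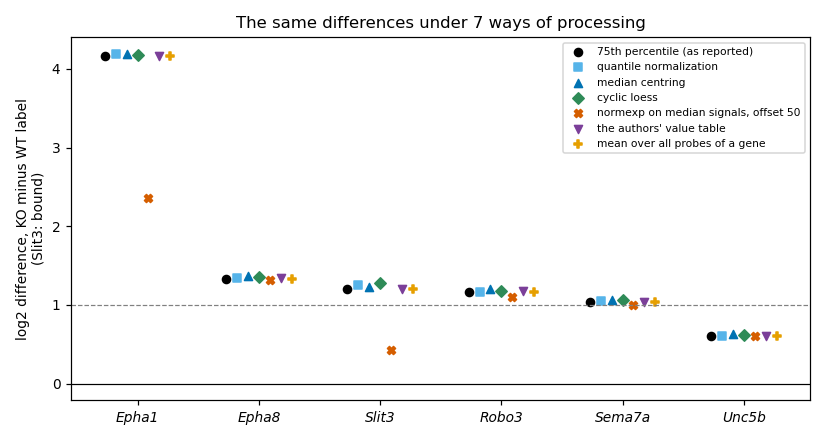
Difference in log2 signal, knockout-labelled minus wild-type-labelled array, of the 6 guidance genes at least 1.5-fold apart under 7 ways of processing, each marked by its own symbol; the dashed line marks 2-fold, and Slit3 is a bound throughout. Normexp with an offset of 50 stands apart for the dim genes Epha1 (2.36) and Slit3 (0.43), and it puts Sema7a at 0.996, just under the dashed line.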

How the data were processed

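Total RNA of 1 retina sample per label was measured on 1-colour Agilent arrays. Both arrays share 1 slide. The intensity values were deposited by the authors as written by Agilent Feature Extraction 11.5.1.1 (protocol GE1_1105_Oct12, array design on mm9), per the file headers. The authors' deposited value table holds the same intensity values times 1 constant per array (median log2 ratio 1.37 for the knockout-labelled and 1.31 for the wild-type-labelled array, rule not given in the sources used here) and served as an alternative. The scanner's calls of spots above background are other values in the deposited files.

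Main values were log2 of the processed signal after division by the 75th percentile of the 59305 non-control spots of each array. Spots with an outlier flag were left out (none of a member), repeated spots averaged, and of a gene's probes the brightest above background was used. Of 55677 probes, 28330 were named through their unversioned accession in a RefSeq table of GRCm38.p6 and 27347 are unnamed here. A gene above background on 1 array only has a bound, set against the dim array: its dimmest spot called well above background, or the gene's own signal there if higher. Where the gene's own signal is used, the bound equals the plain difference between the arrays. The threshold was 2-fold. The number of arrays limits the precision.

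The members and lists were chosen with earlier results of these data known. Values were given for members at least 1.5-fold apart, the 3 brightest and the extremes of each family, and the extremes, brightest and 2-fold genes of the lists. Epha2, Efna5, Sema3g, Sema5a, Sema5b, Ntn1, Unc5d, Unc50, Nck2, Farp2, the cell type markers and the gene neighbours were named after their values were seen. Normexp and cyclic loess used limma 3.58.1, and the rest Python 3.11.15. The counting step was tested on simulated data with known folds placed in brighter genes only. Both simulated arrays had the same background calls, so neither the bound rule nor known folds in dim spots were tested.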

Additional observations from a re-analysis of the deposited data

Results flagged for a closer look

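The dimmer of the 2 Sema6d probes, A_55_P2076861, was not used for its gene and differed at least 2-fold, by -1.16, with a log2 signal of -5.02 on the knockout-labelled array and -3.87 on the wild-type-labelled array. The brighter Sema6d probe, which stood for this transmembrane semaphorin, gave -0.21. At a technical SD of 0.33 for the dim spot, and with a difference of -0.34 under normexp, the dim probe carries the weaker measurement. Of the 23 member probes that did not stand for their gene, 18 were above background on both arrays, 17 of these were within 0.5 of 0, and this was the only one at least 2-fold apart.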

How the results depend on the processing

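The count of 5 guidance genes at least 2-fold higher and 0 lower held under quantile normalization, median centring, cyclic loess, the authors' value table, the mean over probes, no filter on dim spots and, as an alternative chosen after seeing the data, without the genes caught by symbol only. It was 4 and 0 of 69 members with genes above background on both arrays, which drops the Slit3 bound by construction. With normexp on median signals it was 3 and 0 of 71 (Epha1, Epha8 and Robo3). Genes whose mean signal reached the median gave 2 and 0 of 41 (Epha8 and Sema7a). Of 71 members, 6 and 0 passed 1.5-fold and 1 and 0 passed 4-fold. Over all named genes, the main values gave 252 higher and 218 lower of 15951, and normexp gave 120 and 45 of 15951. Genes above background on both arrays gave 160 and 94 of 15267. Without a filter there were 580 and 672 of 21367 genes, beside 5 and 0 of 75 members. For genes whose mean signal reached the median there were 70 and 14 of 7976. The members' median ran from -0.05 to -0.01 over these settings. Of 90 recomputed family medians, 6 moved by over the technical SD, 4 of them those of the netrins, which ran from -0.15 to 0.03. The 0.03 is Ntng1 alone, the only netrin whose mean signal reached the median. The neuropilin median that moved in that setting is likewise Nrp2 alone. The median of the netrin receptors ran from -0.08 to 0.13, lowest with the mean over all probes. Single genes were recomputed 204 times (34 genes), and 14 values shifted by more than the technical SD, 6 of them under normexp and the other 8 with the mean over probes, and 0 of the genes at least 2-fold apart changed sign. With that mean the sign turned in 6 members: Efnb2 gave -0.31, Dcc -0.23, Ntng1 -0.03, Plxnd1 0.05, Sema3a 0.05 and Sema3c 0.43 (-0.11 by its brightest probe). For Efnb2, Dcc and Sema3c the mean takes in a probe not well above background on at least 1 array. For Ntng1, Plxnd1 and Sema3a every probe was above background on both arrays, and the probes themselves differed in sign. The mean also gave Sema6d -0.69 (1.61-fold lower), which would be past 1.5-fold. Dim spots limit Slit3, Sema3g, Unc5d and the wild-type-labelled value of Epha1. Mean signals are not among the columns used here, so normexp took median signals. No paired analysis was possible because the labels give 1 array per genotype.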

Other observations

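Genes lying next to the 6 guidance genes at least 1.5-fold apart are given here, by gene order in the RefSeq table of GRCm38.p6. The 2 protein-coding genes on each side gave 24 neighbours, of which 23 were matched and 18 were measured on both arrays, with 17 of those within 0.5 of 0, beside 94.7% of all genes. The 2 neighbours with bounds, Cyp11a1 and Ccdc33, both lay beyond 0.5. Next to Epha1, the focal adhesion gene Zyx had a log2 signal of 2.59 on the knockout-labelled array and 2.41 on the wild-type-labelled array (0.18), and the bitter taste receptor genes on the other side were not above background. Next to Epha8, the complement gene C1qa was at -0.15 and Zbtb40 at 0.29, while Wnt4, 1 gene further, was dim with -3.37 on the knockout-labelled array and -2.44 on the wild-type-labelled array (-0.93). Next to Sema7a, Ubl7 was at 0.03, and the steroidogenic enzyme gene Cyp11a1 was the only neighbour at least 2-fold apart. Cyp11a1 was not well above background on the knockout-labelled array, at -5.47, against -3.66 on the wild-type-labelled array (-1.81, or 3.50-fold lower). Ccdc33, 1 gene further, had -5.53, also not well above background, and -4.71 on those arrays (-0.82, or 1.77-fold lower). Both bounds are the plain difference between the arrays, because each gene's own dim signal exceeded the dimmest spot called well above background. Pank3, next to Slit3, was at 0.01, and Pcbd1, next to Unc5b, was at -0.001. No explanation was tested for these values.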
